A study of Mus musculus with 8 samples.

Results

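The glucocorticoid receptor gene *Nr3c1*, the mineralocorticoid receptor gene *Nr3c2* and 8 genes known to be induced by glucocorticoids or stress, *Fkbp5*, *Sgk1*, *Tsc22d3*, *Zbtb16*, *Sult1a1*, *Pdk4*, *Hif3a* and *Plin4*, were followed in the prefrontal cortex (PFC) of mice. The rule named them by gene symbol and not by their values, but the genes were chosen with earlier results of these data known. All 10 were among the 15039 genes of the table. The 8 RNA-seq libraries came from PFC of wild-type male C57BL/6NCrljOri mice that were injected bilaterally at 6 weeks of age and dissected after 4 weeks. According to the paper, mice were killed under isoflurane, and sequencing used mice already shown to overexpress Rnf146 and to have social deficits. In 4 libraries the virus was AAV2/1-hsyn-RNF146-eGFP (Rnf146), and in the other 4 it was AAV2/1-hsyn-eGFP (eGFP). The hsyn promoter limits the transgene mainly to neurons, and both groups carried an AAV that expresses eGFP. The tissue also holds glia, vessels and neurons that the virus did not reach, and Rnf146 is an E3 ubiquitin ligase that acts on PARylated proteins.

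Corticosteroids released under stress bind both receptors, which then move to the nucleus and regulate genes through DNA elements. The mineralocorticoid receptor binds corticosterone more tightly, whereas the glucocorticoid receptor is engaged mainly at daily peaks and under stress. *Fkbp5* encodes a co-chaperone that lowers the receptor's affinity for its ligand, and its induction closes a feedback loop. *Sgk1* encodes a kinase that regulates ion channels, and *Tsc22d3* encodes the anti-inflammatory protein GILZ. *Zbtb16* encodes the zinc finger repressor PLZF, *Hif3a* a member of the hypoxia-inducible factor family, *Pdk4* a kinase that restrains pyruvate oxidation, *Plin4* a lipid droplet protein and *Sult1a1* a phenol sulfotransferase. Several of these genes are read as markers of recent glucocorticoid exposure in the brain.

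The classic glucocorticoid response element is a palindrome with the arms AGAACA and TGTTCT separated by 3 bases of any kind. RefSeq promoter windows on GRCm38.p6, each of 300 bases from 250 before to 50 after a start, were found for 8 of the 10 genes, in 15 windows, and *Nr3c1* and *Zbtb16* had no entry. The exact palindrome, which reads the same on both strands, was in 1 of these 15 windows, that of an *Sgk1* start, and in 3 of the 32851 windows of all genes (0.00913%). A single arm, AGAACA or TGTTCT, was in 5 of the 15 windows and in 19.0% of all windows, and the arms of the palindrome are counted among these. The 250 bases before this *Sgk1* start (chr10:21993640-21993889, plus strand) are shown because they hold the element itself, 189 to 175 bases before the start, and the same stretch of *Hif3a* (chr7:17062428-17062677, minus strand) because *Hif3a* was the member whose RNA passed the test. Capitals mark the palindrome and single arms, which the *Hif3a* stretch does not hold. A match of letters is no evidence of binding, and its absence here says nothing of other regions.
Sgk1: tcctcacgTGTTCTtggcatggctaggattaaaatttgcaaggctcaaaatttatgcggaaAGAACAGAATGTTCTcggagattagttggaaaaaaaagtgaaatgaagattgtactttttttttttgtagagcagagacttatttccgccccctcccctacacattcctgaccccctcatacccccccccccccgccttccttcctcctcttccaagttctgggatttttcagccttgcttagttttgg
Hif3a: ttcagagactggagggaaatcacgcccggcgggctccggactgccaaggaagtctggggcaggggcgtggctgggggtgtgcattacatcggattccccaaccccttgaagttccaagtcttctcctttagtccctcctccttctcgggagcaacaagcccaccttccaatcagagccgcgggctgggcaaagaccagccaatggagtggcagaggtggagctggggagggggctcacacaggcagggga

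The deposited values are on a log2 scale and had been centred, so that the eGFP and the Rnf146 value of a pair of same-numbered libraries add up to the same number in every pair. Each gene therefore carries a mean and 4 pair differences, given here as Rnf146 minus eGFP, and a difference cannot be assigned to the eGFP or to the Rnf146 library of its pair. Groups without overlap therefore mean no more than 4 pair differences of the same sign. A fit that ignores the pairs counts 6 residual degrees of freedom where the 4 differences leave 3, so its p-values are too small and its calls are given for comparison only. The scale is not per gene length, so levels are not compared between genes, and it compresses differences of weakly expressed genes. Read depth is not part of these values and is unknown. *Rnf146* itself, the check of the labels, lay between 13.01 and 13.17 in the Rnf146 libraries and between 10.35 and 10.50 in the eGFP libraries, a mean difference of 2.64 ± 0.13 (SD over 4 pairs). Nothing in the labels states whether each library came from a single mouse, so the p-values measure the spread between these libraries.

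Of the 10 genes, *Hif3a* was the only one that differed between the groups at an adjusted p of 0.1 or less, and it was lower in Rnf146-overexpressing PFC. The test was a limma fit that takes each pair as a block (the paired fit), with Benjamini-Hochberg adjustment over all genes. Over the whole table, 188 genes (1.25%) were called in this test, 123 higher and 65 lower. *Zbtb16* had the next lowest adjusted p, which missed the threshold. Both receptors and the widely used reporters *Fkbp5*, *Sgk1* and *Tsc22d3* had mean differences between -0.06 and 0.10, smaller than the SD of their 4 pairs. The median difference of the 10 genes was -0.064, beside 0.001 for all genes. An unadjusted p below 0.05 was found for 3 of the 10, *Hif3a*, *Zbtb16* and *Pdk4*, all with negative differences, and across the table for 12.4% of all genes. The same 3 genes were lower in all 4 pairs, as were 10.2% of all genes, and none of the 10 was higher in all 4 pairs, as were 10.4%.

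**Figure D1:**
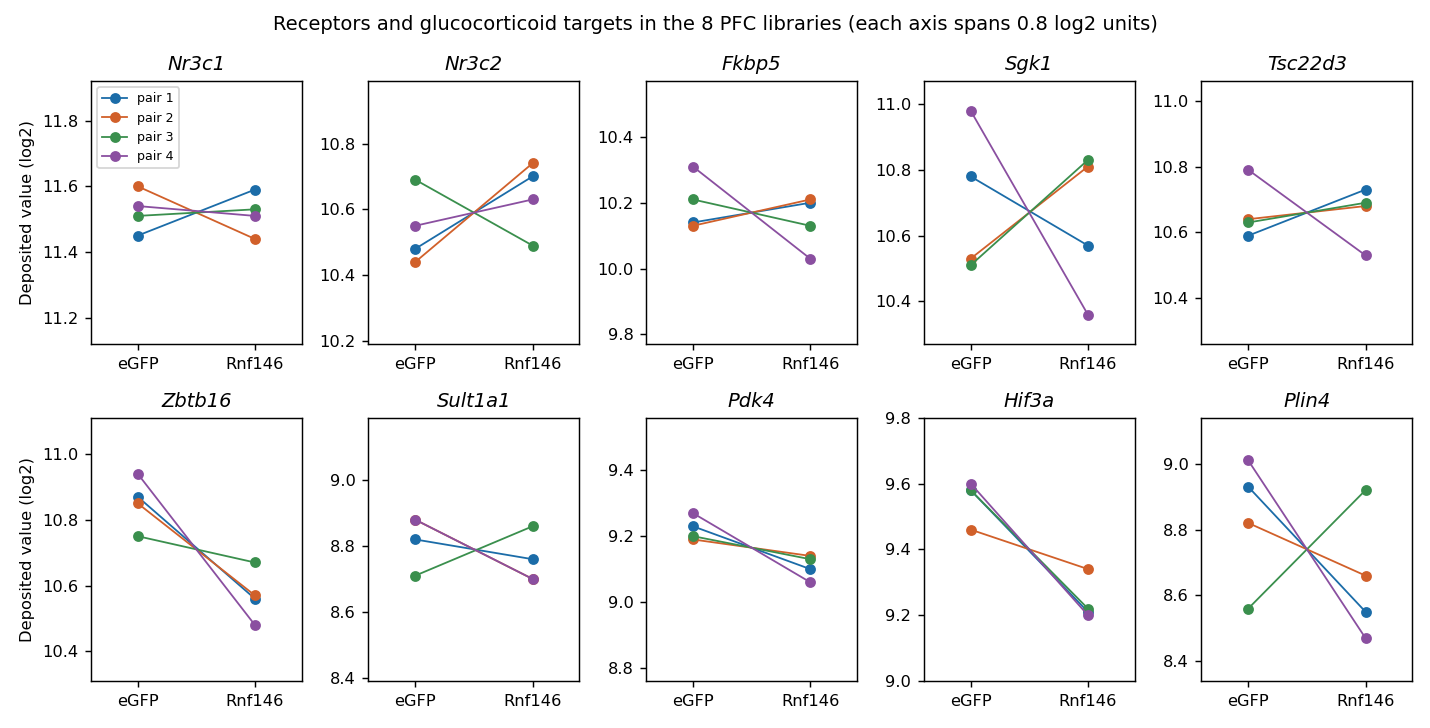
Deposited log2 values (vertical axis, spanning 0.8 log2 units in every panel) of the 10 genes in the eGFP and Rnf146 libraries, with a line joining the 2 libraries of a pair. All 4 lines of *Hif3a*, *Zbtb16* and *Pdk4* go down, whereas those of *Sgk1* cross, with 2 up and 2 down.

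*Hif3a* (GRCm39, chromosome 7, 16764918 to 16796352, minus strand) is the member of the hypoxia-inducible factor family that can act as a negative regulator of the others. Its value was 9.58, 9.46, 9.58 and 9.60 in eGFP libraries 1 to 4, and 9.21, 9.34, 9.22 and 9.20 in Rnf146 libraries 1 to 4. All 4 differences were negative, as in 10.2% of all genes, and pair 2 had the smallest. The mean difference was -0.31 ± 0.13 (SD over 4 pairs), which is 0.805-fold on the deposited scale, with a 95% interval of -0.45 to -0.18. The paired limma fit gave an adjusted p of 0.0702. With the values turned back to log2 normalized counts on an estimated variance-stabilizing curve, meant to undo the compression of weak genes, the difference was -0.59. On that scale *Plin4* followed at -0.53, but limma gave it an adjusted p of 0.603 there. *Zbtb16* was at -0.36, *Pdk4* at -0.25 and *Sult1a1* at -0.19, and the other 5 genes lay between -0.08 and 0.13. In tissue libraries, fewer cells of a type and less RNA per cell cannot be told apart. *Hif3a* lost the call without pair 3 (difference -0.30, adjusted p = 0.159 from limma) and without pair 4 (-0.29, adjusted p = 0.324), while its direction stayed.

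*Zbtb16* (GRCm39, chromosome 9, 48563141 to 48748664, minus strand) is known as a strongly glucocorticoid-inducible gene in several tissues. It had values of 10.87, 10.85, 10.75 and 10.94 in the eGFP libraries and of 10.56, 10.57, 10.67 and 10.48 in the Rnf146 libraries. All 4 differences were negative, and pair 4 lay furthest apart and pair 3 closest together. The mean difference of -0.28 ± 0.15 (SD over 4 pairs), with a 95% interval of -0.43 to -0.14, reached an adjusted p of 0.116 in the paired limma fit. It was called by limma with array weights (adjusted p = 0.0727) and without pair 3 (0.0701, at a difference of -0.35).

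*Pdk4* (GRCm39, chromosome 6, 5483097 to 5496339, minus strand), which switches cells from glucose to fat oxidation, varied least between pairs. Its values of 9.23, 9.19, 9.20 and 9.27 in the eGFP libraries stood against 9.10, 9.14, 9.13 and 9.06 in the Rnf146 libraries. All 4 pair differences were negative and small, from -0.21 to -0.05. Their mean was -0.12 ± 0.07 (SD over 4 pairs), and limma gave an adjusted p of 0.384. For each of these 3 genes an exact sign-flip test gave the smallest two-sided p that 4 pairs allow, which is above 0.05. Every gene with 4 differences of the same sign gets this p, so it adds nothing to the signs.

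**Figure D2:**
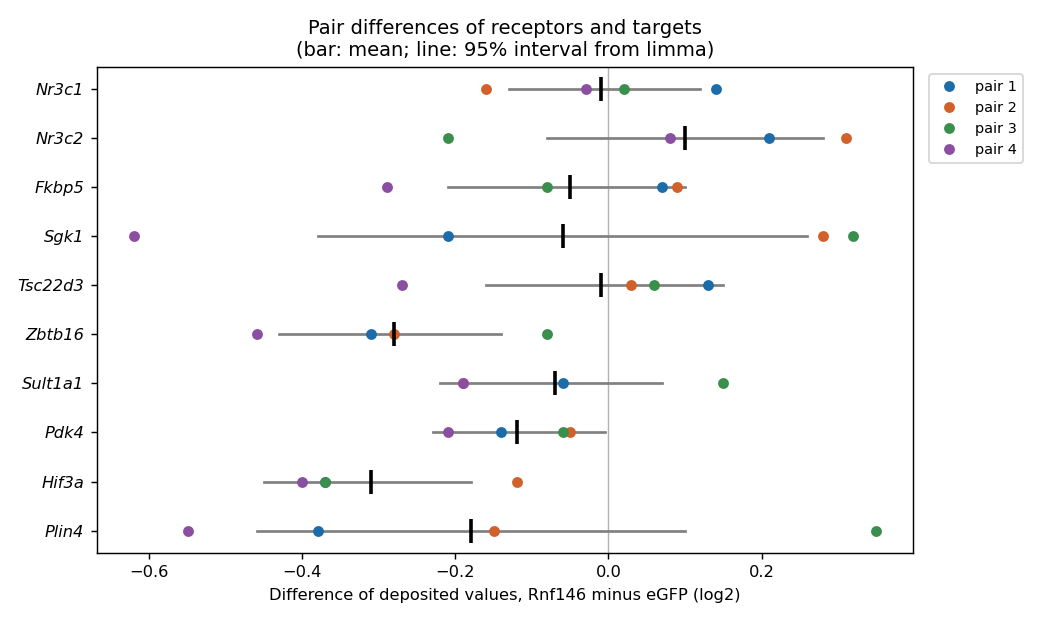
Difference of deposited log2 values, Rnf146 minus eGFP (horizontal axis), of the 10 genes in each of the 4 pairs (coloured points, some of which coincide), with the mean (black bar) and the 95% interval from limma (grey line). The intervals of *Hif3a*, *Zbtb16* and *Pdk4* lie below 0, those of the other 7 genes include 0, and pair 4 is the lowest point of all 8 targets.

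Neither receptor gene passed the test. *Nr3c1* had values of 11.45, 11.60, 11.51 and 11.54 in the eGFP libraries and of 11.59, 11.44, 11.53 and 11.51 in the Rnf146 libraries, and the groups overlapped. The mean difference was -0.01 ± 0.12 (SD over 4 pairs), with a 95% interval of -0.13 to 0.12 on the deposited scale. *Nr3c2* (GRCm39, chromosome 8, 77625576 to 77971863, plus strand) was at 10.48, 10.44, 10.69 and 10.55 in the eGFP libraries and at 10.70, 10.74, 10.49 and 10.63 in the Rnf146 libraries. It was the only one of the 10 genes with a mean difference above 0, 0.10 ± 0.22 (SD over 4 pairs), and pair 3 went the other way at -0.21. Without pair 2 the mean of *Nr3c2* was 0.03, and without pair 3 it was 0.20. In the paired limma fit *Nr3c1* had an adjusted p of 0.977 and *Nr3c2* one of 0.667. *Gm10649*, an antisense RNA whose exons overlap those of *Nr3c2*, had a mean difference of 0.07.

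*Fkbp5*, *Sgk1* and *Tsc22d3*, the targets most often measured as a readout of receptor activity, went in both directions across the pairs. On GRCm39, *Fkbp5* lies on chromosome 17 (28618058 to 28737521, minus strand), *Sgk1* on chromosome 10 (21758083 to 21875802, plus strand) and *Tsc22d3* on chromosome X (139440091 to 139501408, minus strand). *Fkbp5* had differences of 0.07, 0.09, -0.08 and -0.29 in pairs 1 to 4, and their mean was -0.05 ± 0.17 (SD over 4 pairs), with a 95% interval of -0.21 to 0.10. *Tsc22d3* was higher in pairs 1 to 3, by 0.13, 0.03 and 0.06, and lower in pair 4, at -0.27, and its mean was -0.01 ± 0.18. *Sgk1*, whose promoter with the palindrome is shown above, had the widest spread of the 10 genes. Its values were 10.78, 10.53, 10.51 and 10.98 in the eGFP libraries and 10.57, 10.81, 10.83 and 10.36 in the Rnf146 libraries. Both the highest and the lowest value came from pair 4, which the centring brings about for the pair with the largest difference. The pair differences of *Sgk1* were -0.21, 0.28, 0.32 and -0.62, with a mean of -0.06 ± 0.44 and a 95% interval of -0.38 to 0.26. For these 3 genes the adjusted p of the paired limma fit lay between 0.805 and 0.977.

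*Plin4* and *Sult1a1*, whose mean values were at percentiles 17.9 and 19.4 of the table, not corrected for gene length, also had overlapping groups. *Plin4* differed by -0.38, -0.15, 0.35 and -0.55 in the 4 pairs, on average by -0.18 ± 0.39 (SD over 4 pairs), which the paired limma fit placed at an adjusted p of 0.602. The mean of *Plin4* was -0.36 without pair 3 and -0.06 without pair 4. *Sult1a1* differed by -0.06, -0.19, 0.15 and -0.19, on average by -0.07 ± 0.16, at an adjusted p of 0.711, and its mean was -0.14 without pair 3 and -0.03 without pair 2 or pair 4. Pair 3 was the positive one in both genes. *Plin4* lies on chromosome 17 (56406617 to 56416931, minus strand) and *Sult1a1* on chromosome 7 (126271299 to 126275615, minus strand) of GRCm39. Their exons overlap those of genes on the opposite strand, *Hdgfl2* for *Plin4*, with a mean difference of -0.05, and *Sgf29* for *Sult1a1*, with 0.10, and whether strand was used in the counting is not given in the sources used here.

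Pair 4 stood out within these genes, a pattern that was noticed after the values had been seen. The difference of pair 4 was the lowest of the 4 pairs in all 8 targets and in neither receptor. That is 8 of the 10 genes, against 22.5% of all genes. These genes share the same 4 pairs and can vary together, so the 8 are not independent of one another. The margin was small in *Hif3a*, at -0.40 beside -0.37 in pairs 1 and 3. In *Sult1a1*, pairs 2 and 4 were both at -0.19 after rounding. The mean over the 8 targets was -0.16, -0.05, 0.04 and -0.37 in pairs 1 to 4. Over all genes the median differences of the 4 pairs lay between -0.0020 and 0.0037. The values are described as normalized, which by itself brings such medians close together, so they cannot tell whether pair 4 was unusual. The differences of pair 4 had the smallest spread over genes, with an SD of 0.140 beside 0.149 to 0.170 in the other pairs. Without pair 4, *Fkbp5*, *Sgk1* and *Tsc22d3* had mean differences of 0.02, 0.13 and 0.08, whereas *Hif3a*, *Zbtb16* and *Pdk4* kept negative ones, of -0.29, -0.22 and -0.08. Because pair 4 was the lowest in each of these genes, leaving it out raises every mean by construction.

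Other genes known to respond to glucocorticoids were read from a list of 25, of which 22 were measured. Mean differences were below 0 in 19 of the 22, against 49.5% of all genes, and the median was -0.071. The list was drawn up with earlier results of these data known. Its genes share the same 4 pairs and can vary together, so the 19 are not independent of one another. None of the 22 was called in the paired fit, and 8 had an unadjusted p below 0.05 from limma, against 12.4% of all genes. Of these 8, 7 had a negative difference and *Mt2* a positive one. The fit that ignores the pairs called 11 of the 22, and 21.5% of all genes. *Dusp1*, which encodes a phosphatase of MAP kinases, had the largest mean difference, with -0.19, -0.36, -0.11 and -0.27 in the 4 pairs, which average -0.23 ± 0.11 (SD over 4 pairs), at an adjusted p of 0.136 from limma. *Gpd1*, a glycerol phosphate dehydrogenase of the cytosol, followed with -0.36, -0.30, -0.06 and -0.20, which average -0.23 ± 0.13, at an adjusted p of 0.143. In 13 of these 22 genes pair 4 was the lowest, against 22.5% of all genes. The mean over the list was -0.05, -0.07, -0.02 and -0.21 in pairs 1 to 4. The clock gene *Per1* and the glucose transporter gene *Slc2a1*, chosen after their values were seen, were both at -0.51 in pair 4 and at 0.17 and 0.13 in pair 1. The metallothionein genes *Mt1* and *Mt2*, also picked in this way, had positive mean differences, of 0.10 and 0.11, and missed the threshold of the paired limma fit (adjusted p = 0.471 and 0.401).

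**Figure D3:**
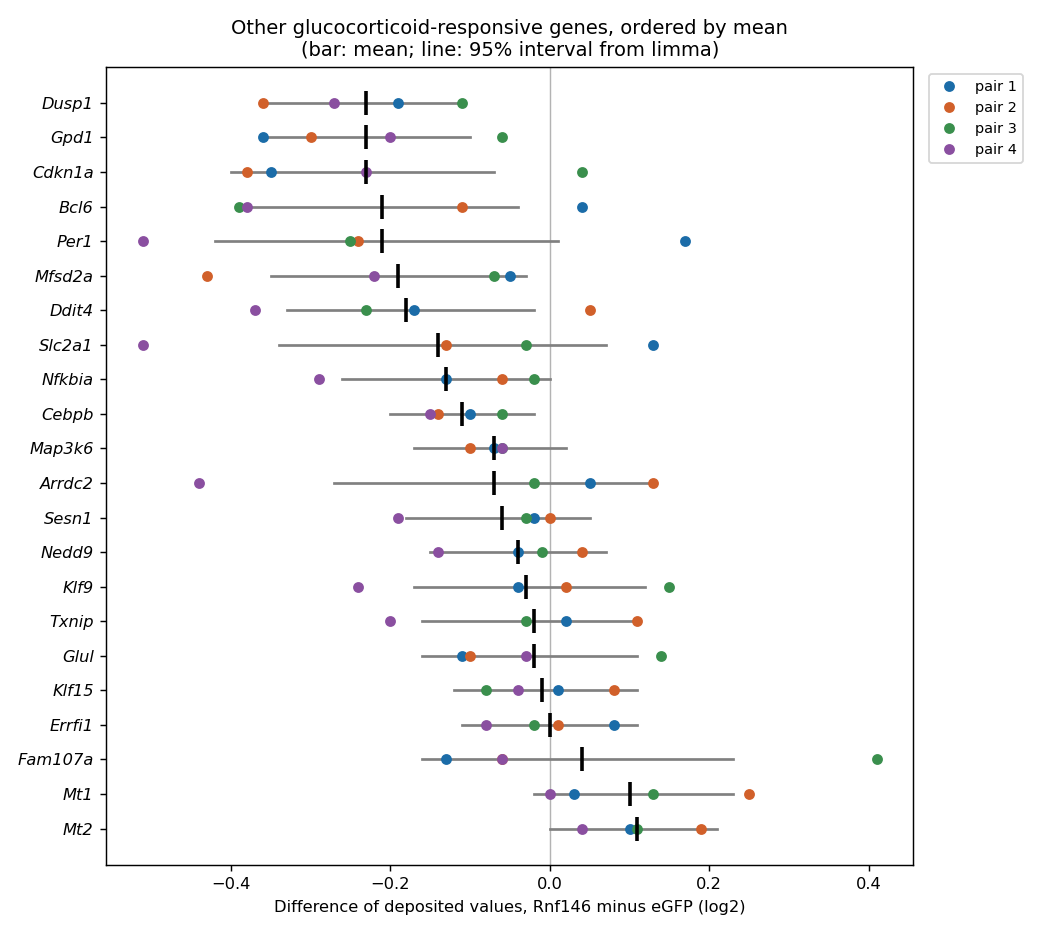
Difference of deposited log2 values, Rnf146 minus eGFP (horizontal axis), of the 22 measured genes of the list of other glucocorticoid-responsive genes, in each of the 4 pairs (coloured points), with the mean (black bar) and the 95% interval from limma (grey line). Means run from -0.23 to 0.11, and pair 4 is the lowest point in 13 genes.

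The machinery around the receptor showed no called gene. Chaperones and co-chaperones hold the receptor in a state that can bind hormone. Of 13 such genes, all measured, 6 had a mean difference above 0 and 7 below. Only 1, the HSP40 gene *Dnajb1* at -0.15, had an unadjusted p below 0.05 from limma, as did 12.4% of all genes. *Fkbp4*, which encodes the co-chaperone that takes the place of FKBP5 on the hormone-bound receptor, differed by -0.20, 0.13, 0.52 and 0.35, on average by 0.20 ± 0.31 (SD over 4 pairs), and *Hspa1b*, an inducible HSP70 gene, by -0.49, -0.41, 0.11 and 0.09, on average by -0.18 ± 0.32. Among 12 coregulators, none had an unadjusted p below 0.05 from limma, and the means ran from -0.11 for *Nrip1*, a corepressor, to 0.08, with *Ep300*, an acetyltransferase, at -0.09. Of 7 genes of glucocorticoid metabolism and transport, 4 were measured, and none had an unadjusted p below 0.05, with the largest mean differences in *H6pd*, at -0.08, and the drug efflux pump gene *Abcb1a*, at -0.03.

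Genes of the corticotropin-releasing hormone (CRH) system, the peptide signal that starts the hormonal stress response and also acts locally in cortex, were measured for 4 of the 5 listed. *Crhr2*, a receptor for urocortins, had differences of 0.38, 0.45, -0.09 and 0.17, which average 0.23 ± 0.24 (SD over 4 pairs), at an adjusted p of 0.309 from limma. *Crhbp*, whose product binds and sequesters CRH, had -0.28, -0.11, -0.12 and 0.04, which average -0.12 ± 0.13, at an adjusted p of 0.462. No gene of this list was called, and 1, *Crhr2*, had an unadjusted p below 0.05 from limma, as did 12.4% of all genes.

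Some cell type markers also differed between the groups. Over all genes, 1.25% were called and 12.4% had an unadjusted p below 0.05 from limma. Genes of a list share the same 4 pairs and can vary together. Markers of cortical excitatory neurons, which define the labelled tissue, were all present, with a mean level of 12.72 to 12.90 in the eGFP libraries and 12.52 to 12.70 in the Rnf146 libraries. All 6 had negative mean differences, 5 had an unadjusted p below 0.05, and 2, *Slc17a7* and *Neurod2*, were called lower. All 5 measured markers of septum and basal forebrain, of 8 listed, were called higher. Their mean levels were 9.53 to 9.73 in the eGFP and 10.07 to 10.27 in the Rnf146 libraries. The measured ones were *Zic1*, *Zic2*, *Zic4*, *Zic5* and *Trpc4*, while *Lhx8*, *Gbx1* and *Chat* were not measured. Mean differences were above 0 for all 9 striatal markers (levels of 10.01 to 10.74 and 10.63 to 11.36) and for all 10 oligodendrocyte markers (11.73 to 12.27 and 12.13 to 12.66), with none called and 8 and 10 at an unadjusted p below 0.05. All 6 microglia markers had negative means, with none called and 3, *Tmem119*, *Csf1r* and *C1qa*, at an unadjusted p below 0.05 (10.54 to 10.66 and 10.36 to 10.47). The 8 astrocyte markers (12.45 to 12.50 and 12.44 to 12.49) and the 8 endothelial markers (9.85 to 9.91 and 9.85 to 9.92) had medians of -0.024 and 0.000, with none called and none at an unadjusted p below 0.05. The 5 interneuron markers had mean levels of 11.27 to 11.34 in the eGFP and 11.42 to 11.49 in the Rnf146 libraries. *Gad1* and *Gad2*, the genes of GABA synthesis, were called higher, while *Pvalb*, *Sst* and *Vip* had negative mean differences and were not called. *Vip* was negative in all 4 pairs, with a mean of -0.23, and had an unadjusted p below 0.05. The part of these shifts in the differences of *Hif3a* and *Zbtb16* was not tested.

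**Figure D4:**
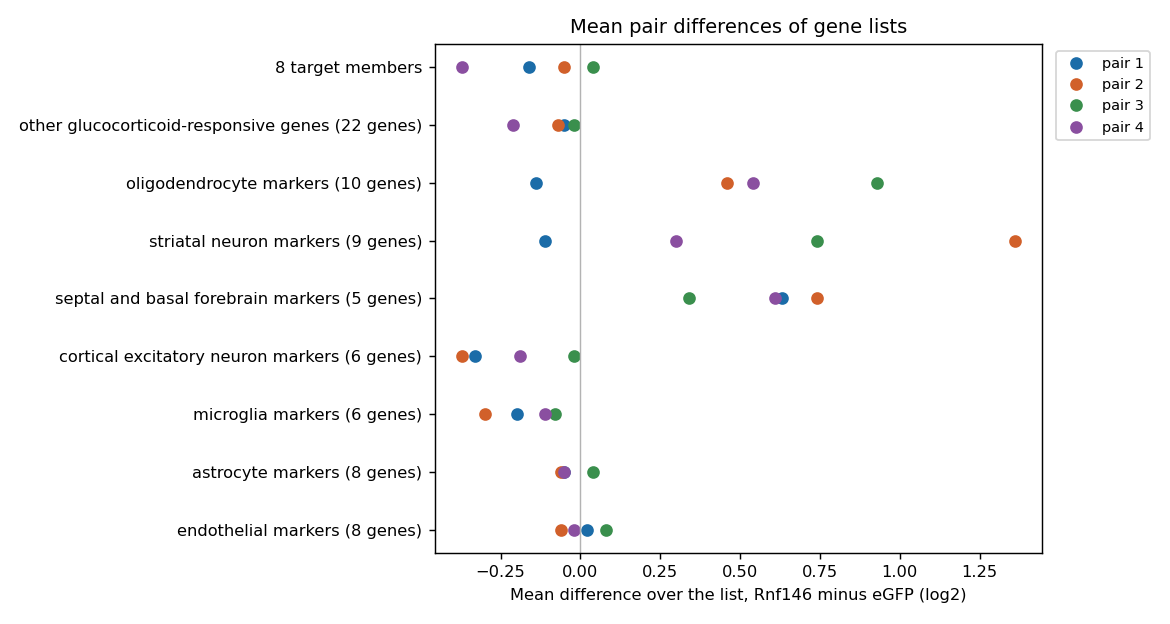
Mean difference, Rnf146 minus eGFP (horizontal axis, log2), over the 8 target genes and over lists of other responsive genes and of cell type markers, in each of the 4 pairs (coloured points). Pair 4 is the lowest point for both lists of glucocorticoid targets, at -0.37 and -0.21, and the striatal list spreads most widely, from -0.11 to 1.36.

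The marker lists varied between pairs as well. In pairs 1 to 4 the mean difference was -0.14, 0.46, 0.93 and 0.54 for oligodendrocyte markers, -0.11, 1.36, 0.74 and 0.30 for striatal markers, and 0.63, 0.74, 0.34 and 0.61 for septal markers. It was -0.33, -0.37, -0.02 and -0.19 for excitatory neuron markers and -0.20, -0.30, -0.08 and -0.11 for microglia markers. How these pair values bear on those of the targets was not tested. The 3 genes of the whole table closest to *Hif3a* in their 4 pair differences, by root mean square distance, were *Nell2* (0.0947), *Adamts2* (0.0992) and *Islr2* (0.104). Those closest to *Zbtb16* were the complement gene *C1qa* (0.0592), with -0.23, -0.29, -0.09 and -0.37 in the 4 pairs, *Cobl* (0.0731) and *Igfn1* (0.0773). Likeness over 4 pairs is a description of these libraries only.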

How the data were processed

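RNA from the PFC of 4 Rnf146 and 4 eGFP samples was sequenced with a stranded mRNA kit. Groups and replicate numbers came from the sample titles, and the 8 columns of values were assigned by their names. The authors trimmed reads with Cutadapt, quantified transcripts with Salmon 1.9.0 (GENCODE vM30, GRCm39) and deposited a gene table. The deposited values are log2 values, from 7.86 to 18.8, although the table is described as normalized counts, and their pair sums differ by at most 1.4e-13. Normalization, transformation and centring are not given in the sources used here. Same-numbered libraries form the pairs because of this centring, which fixes their deviations to be opposite.

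The main model was a limma fit (version 3.58.1, R 4.3.3, eBayes with trend) of all 15039 genes, with the replicate number as a block, no filter on low values and Benjamini-Hochberg adjustment over the whole table, and a gene counted as called up to an adjusted p of 0.1. The fit was tested on simulated data. Log2 normalized counts with an offset of 0.5 were read back on a variance-stabilizing curve fitted to mean counts listed by the study for 294 genes. The absolute residual of the curve had a median of 0.0068 and a largest value of 0.538. The genes and lists were chosen with earlier results of these data known. By rule, the named genes were all 10 members, *Rnf146* and the called genes of each pathway list or else its 2 largest mean differences. The rule also covered the 3 nearest profiles of the 2 members with the largest mean differences. Outside this rule, *Per1*, *Slc2a1*, *Mt1* and *Mt2* were picked after their values were seen, and *Dnajb1* for its unadjusted p. Genes whose exons overlap a member and single cell type markers were named as well. Alternatives were no block, no trend, robust variances, array weights, median centring, quantile normalization, the lowest 25% of mean values left out, an adjusted p of 0.05, log2 normalized counts and each pair left out. Python 3.11.15 was used for the remaining steps.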

Additional observations from a re-analysis of the deposited data

Results flagged for a closer look

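The 4 pair differences of *Hif3a* hold 1 value apart from the others: pair 2 at -0.12 beside -0.37, -0.37 and -0.40, a gap of 0.884 of the whole range. The mean over the CRH system genes was -0.03, -0.03 and -0.04 in pairs 1 to 3 and 0.06 in pair 4, with a gap of 0.895 of the range. Both exceed Dixon's 95% critical value for 4 values. Of 25 genes and lists examined these 2 did so, and 5.39% of all genes do, about the share that chance gives.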

How the results depend on the processing

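Over the 10 genes and the alternatives that could be computed, 116 of 128 values kept their direction and their side of the threshold. The alternative at an adjusted p of 0.05 uses the main fit, so a gene not called at 0.1 could not change there. The difference of *Hif3a* stayed negative in all 13 alternatives, and its call was lost in 3 of them, without pair 3, without pair 4 and at an adjusted p of 0.05. Without the replicate block, 3226 genes (1655 higher and 1571 lower, against 123 and 65 with it) of the table, 3 of the 10 genes and 14 of the 55 measured genes of the 5 pathway lists were called, with p-values that are too small because the centring leaves 3 and not 6 residual degrees of freedom. There *Hif3a* had an adjusted p of 0.00305, *Zbtb16* of 0.00876 and *Pdk4* of 0.0292 from limma. With array weights these counts were 355, 2 and 1. An adjusted p of 0.05 left 80 genes of the table and 0 of the 10. With each pair left out, the counts ran from 14 to 421, from 0 to 1 and from 0 to 2. Without pair 4, 14 genes of the table and 0 of the 10 were called, 42 genes were called without pair 2 and 421 without pair 1. Without pair 3, the single gene called of the 10 was *Zbtb16* in place of *Hif3a*. The mean differences with each pair left out ran from -0.10 to 0.02 for *Fkbp5*, from -0.18 to 0.13 for *Sgk1*, from -0.06 to 0.08 for *Tsc22d3* and from -0.06 to 0.04 for *Nr3c1*, each crossing 0, and from -0.36 to -0.06 for *Plin4*, from -0.14 to -0.03 for *Sult1a1*, from 0.03 to 0.20 for *Nr3c2*, from -0.14 to -0.08 for *Pdk4*, from -0.35 to -0.22 for *Zbtb16* and from -0.38 to -0.29 for *Hif3a*. The cause of these changes was not tested, beyond the fewer libraries in each fit. The depth of the libraries is unknown, so the precision that counting gives could not be stated. *Plin4* and *Sult1a1* were among the genes removed with the lowest 25% of mean values and had no value there.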
